A study of Mus musculus with 33 samples.

Results

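RNA-seq of Hp1α/β Δ/Δ mouse embryonic stem cells (ESCs) was set against RNA-seq of wild-type ESCs in 6 of the 33 libraries of the series. The members are all 3 libraries labelled as double knockouts of HP1α and HP1β and the 3 wild-type libraries, here called set A, that the authors tabulated with them. Every gene of that table was read, and 15854 of its 55487 genes passed a filter on low counts and were tested. The question was how the transcriptome of ESCs changes when both paralogs are missing and the remaining one, HP1γ, is present. All groups are untreated ESCs of strain C57BL/6. The double mutant lacks Cbx5, the gene of HP1α, and Cbx1, the gene of HP1β, as constitutive deletions, and its label names no further allele. The Hp1α Δ/Δ single mutant lacks Cbx5 alone, the Hp1β Δ/Δ single mutant lacks Cbx1 alone, and both are represented by 3 libraries each. A second wild-type set of 3 libraries, here called set B, belongs to other tables of the series and served as an alternative control. The study edited ESCs with CRISPR/Cas9 and expanded individual clones, so an effect of the genotype and a property of the clone cannot be told apart. The methods speak of biological replicates, but the labels do not name separate clones or cultures, and the p-values measure only the spread between these samples. ESCs were grown on mouse embryonic fibroblasts and parted from them on gelatin before use.

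HP1 proteins bind histone H3 methylated at lysine 9 through a chromodomain and dimerize through a chromoshadow domain, which also recruits silencing factors. They are known for heterochromatin formation and for the repression of repeats and of lineage genes in ESCs. Mammals carry the paralogs HP1α, HP1β and HP1γ, and loss of one can in principle be buffered by the others.

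The deletions were made with a pair of guides for each gene, and these guides are shown because they define the genotype. Each is printed 5′ to 3′, with the 12 bases next to the PAM in capitals.
HP1α upstream: ctcgccagTTCTGCCGAGAT
HP1α downstream: ggctgagtGAGAACTAGTAG
HP1β upstream: tactaggaAAGTCTAGCGAT
HP1β downstream: tcttgcatAGAAGCCTAGGC
The HP1β upstream guide matched exon 2 of the transcript Cbx1-205 of GENCODE M21 at chr11:96801311-96801330 of GRCm38, on the plus strand and followed by the PAM tgg. The other 3 guides matched no annotated transcript, and their places in the genome were not analysed here.

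The mRNA levels of both targeted genes were lower in the double mutant, while transcripts of each remained. Levels are given as CPM, the counts of a gene for each 1e6 counts of a library, with the libraries scaled by the TMM method. Cbx5 (ENSMUSG00000009575, chromosome 15, 103191544 to 103239816 of GRCm38) had 483, 472 and 483 CPM in wild-type set A and 198, 197 and 205 CPM in Hp1α/β Δ/Δ ESCs. It had 174, 178 and 176 CPM in Hp1α Δ/Δ ESCs and 425, 457 and 449 CPM in Hp1β Δ/Δ ESCs. The double mutant thus lay far below the wild type and slightly above the Hp1α single mutant, with no overlap to either. The log2 fold change against set A was −1.27, where SE is its standard error (SE 0.032, adjusted p = 3.61e-15 by the edgeR quasi-likelihood test, Benjamini-Hochberg adjusted). Cbx1 (ENSMUSG00000018666, chromosome 11, 96789127 to 96808640) had 425, 437 and 442 CPM in set A and 95.6, 97 and 93.7 CPM in the double mutant. Hp1β Δ/Δ ESCs had 99.7, 97.2 and 108 CPM of it, and Hp1α Δ/Δ ESCs 461, 449 and 452 CPM. Its log2 fold change against set A was −2.19, and against the Hp1β single mutant it was −0.082 (adjusted p = 0.257, edgeR quasi-likelihood test, Benjamini-Hochberg adjusted).

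Cbx3, the gene of HP1γ, did not pass the test against set A. It had 183, 171 and 172 CPM in set A and 199.9, 185 and 165 CPM in the double mutant, ranges that overlap. Its log2 fold change was 0.059 (SE 0.054, adjusted p = 0.399 by the edgeR quasi-likelihood test, Benjamini-Hochberg adjusted), and without replicate 1 of the double mutant it was −0.0078. The single mutants had 220, 201 and 206 CPM without Hp1α and 196, 206 and 209 CPM without Hp1β, all above set A. The interaction term explained further on was −0.41 for Cbx3 (adjusted p = 0.000534, edgeR quasi-likelihood test, Benjamini-Hochberg adjusted). Levels can be compared between the paralogs on the authors' TPM scale, which accounts for length. There Cbx5, Cbx1 and Cbx3 summed to 686 ± 12.3 TPM (SD, n = 3) in set A. In the double mutant this sum was 244 ± 9.44 TPM (SD, n = 3). Cbx3 made up 21.1% ± 1.07 (SD, n = 3) of that sum in set A and 61.1% ± 2.62 (SD, n = 3) in the double mutant. This share counts the RNA left from Cbx5 and Cbx1, whose coding capacity is not known from gene counts. The paper reports from western blots that the deleted HP1 proteins were absent in its single and double mutants.

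**Figure D1:**
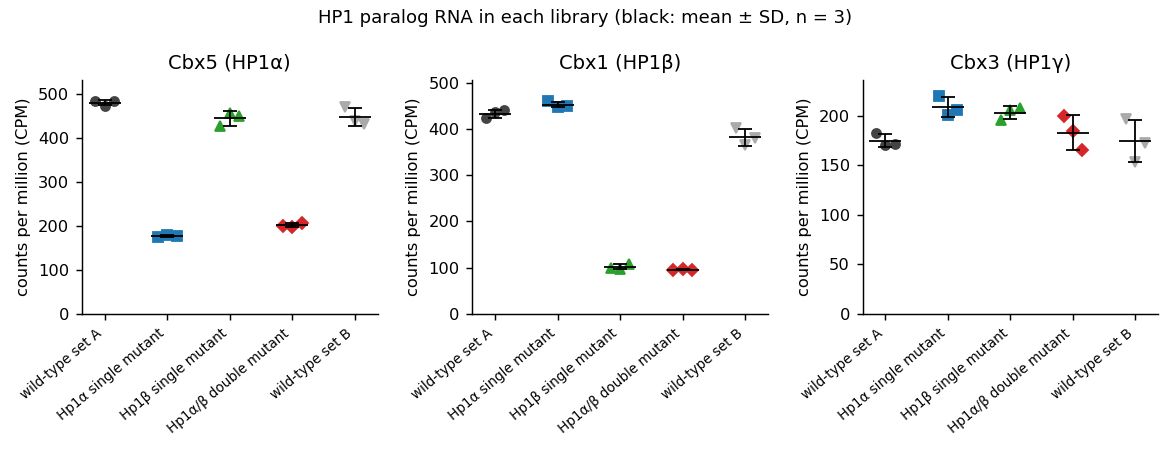
Levels of Cbx5, Cbx1 and Cbx3 RNA in CPM (linear axes from 0) in each library of 5 groups, with the mean and SD of 3 libraries in black. Cbx5 is low in the Hp1α single and the double mutant, Cbx1 is low in the Hp1β single and the double mutant, and the Cbx3 values of the double mutant (165 to 199.9 CPM) overlap those of both wild-type sets.

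Genes around the deletions were read next, beside the 8.15% of all tested genes that were called against set A by the thresholds given further on. Within 500 kb of Cbx5, 14 other genes were tested, with a median log2 fold change of −0.019, and 3 were called. Pde1b, a cyclic nucleotide phosphodiesterase, had 69.2, 74.4 and 73.8 CPM in set A and 29.4, 31.1 and 33.3 CPM in the double mutant (−1.22 on the log2 scale). Nckap1l, of the actin-regulating WAVE complex in blood cells, had a log2 fold change of −1.61, which against set B was −0.88 and not called. The predicted gene Gm49272 had a log2 fold change of 1.08. Within 500 kb of Cbx1, 20 other genes were tested, with a median of 0.14, and 2 were called. Copz2, a subunit of COPI vesicle coats, had 3.38, 4.56 and 3.25 CPM in set A, 8.73, 8.95 and 7.86 CPM in the double mutant and 7.05, 7.55 and 7.65 CPM in set B. It was therefore called against set A (1.18) but not against set B (0.19). The other gene was Gm11532 (2.2).

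The libraries were alike in depth. Totals ran from 20627149 to 21668932 counts in set A and from 19714459 to 24423041 in the double mutant, and the biological coefficient of variation was 0.0514. The 6 ESC markers checked were present in every library and none of these 6 was called, while further pluripotency genes that were called are given with their list. Pou5f1 (OCT4) had 949, 943 and 937 CPM in set A and 827, 849.9 and 837 CPM in the double mutant, a log2 fold change of −0.18. Those of Sox2, Nanog, Esrrb, Zfp42 and Dppa5a were 0.41, 0.88, 0.63, −0.32 and −0.24. Nanog stayed under the threshold, although its 380.1, 380.1 and 370.0 CPM in the double mutant lay above the 199, 205 and 207 CPM of set A. In bulk samples such as these, fewer cells of a type and less RNA per cell cannot be told apart.

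A gene was called higher or lower when its log2 fold change exceeded 1 in size and its adjusted p lay below 0.05. Against wild-type set A, 1292 of 15854 genes (8.15%) were called in Hp1α/β Δ/Δ ESCs, 469 of them higher (2.96%) and 823 lower (5.19%). Falls thus made up 63.7% of the calls. With 3 libraries against 3, an exact permutation test cannot go below p = 0.1, so calls rest on the spread that edgeR shares across genes. The calls lay among weakly expressed genes: the median level in set A was 1.0 CPM for the genes that rose and 3.11 CPM for those that fell, against 17.8 CPM over all genes tested. In 234 of the genes that rose, set A lay under 1 CPM on average, and in 389 of those that fell, the double mutant did. By annotation, 1049 of 13981 protein-coding genes (7.5%) were called, as were 76 of 396 lincRNAs.

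The choice of the wild-type set moved many calls. Against set B, 1767 of 15920 genes were called, 753 higher and 1014 lower. Of the 1292 genes called against set A, 739 (57.2%) were also called in the same direction against set B, and 106 had the opposite sign there. Between the wild-type sets themselves, 909 of 16008 genes passed these thresholds. Genes named here whose call was lost against set B are marked beside their values, apart from Nefl, Olig2, Krt19, Pcdhb2, Dcn, Acta2, Thbs1 and Col1a1, whose calls were also lost.

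**Figure D2:**
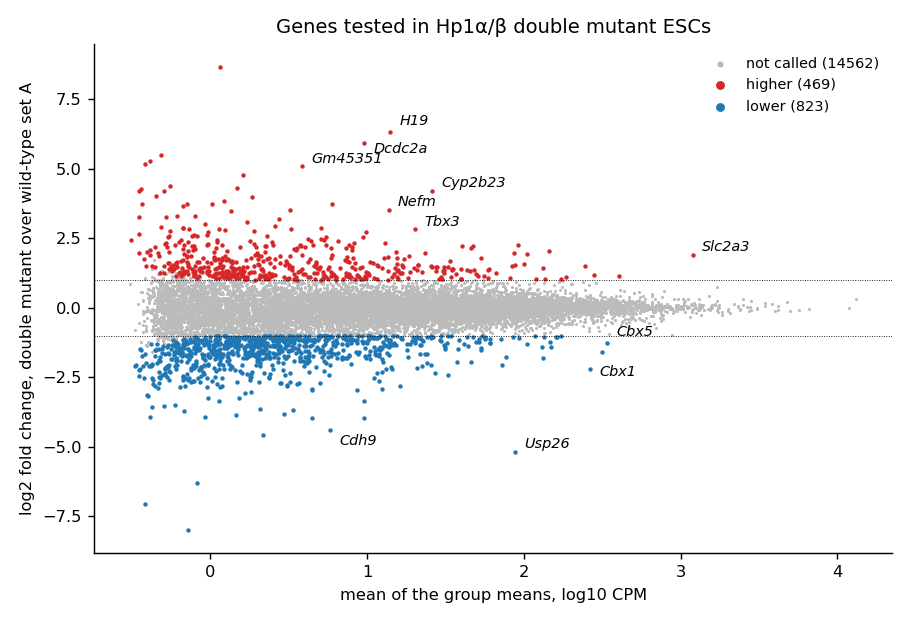
Log2 fold change of each of the 15854 tested genes, Hp1α/β Δ/Δ ESCs over wild-type set A, against the log10 of its mean level in CPM. Red points are the 469 genes called higher, blue points the 823 called lower, grey points the rest, and dotted lines mark an absolute log2 fold change of 1. Most called genes lie at the left, at low levels, and Usp26, Cbx1, Cbx5 and Slc2a3 stand out at higher ones.

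The largest rise among genes with at least 5 CPM in a group and no overlap of libraries was that of H19, the imprinted long non-coding RNA transcribed from the maternal allele beside Igf2. H19 (ENSMUSG00000000031, chromosome 7, 142575529 to 142578143 of GRCm38) had 0.411, 0.274 and 0.335 CPM in set A and 26.9, 28.2 and 28.4 CPM in the double mutant, a log2 fold change of 6.33 (SE 0.16, 80.3-fold, adjusted p = 2.74e-15 by the edgeR quasi-likelihood test, Benjamini-Hochberg adjusted). It had 2.09, 1.79 and 1.69 CPM in Hp1α Δ/Δ and 8.83, 8.45 and 6.42 CPM in Hp1β Δ/Δ ESCs. The groups formed 4 separate levels, with the wild type lowest and the double mutant highest. Igf2 itself, the growth factor of the paternal allele, went from 45.6, 45.8 and 43.2 CPM to 124, 134 and 132 CPM (1.53). This call was lost against set B, whose libraries had 77.5, 76.2 and 79.8 CPM (0.73).

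Dcdc2a, which encodes a doublecortin-domain protein, went from 0.228, 0.411 and 0.287 CPM to 18.4, 19.7 and 18.7 CPM (5.91 on the log2 scale). Its single-mutant values were 0.908, 1.05 and 0.656 CPM without Hp1α and 2.72, 3.69 and 2.69 CPM without Hp1β. As for H19, each single mutant lay between the wild type and the double mutant. Cyp2b23, a cytochrome P450, had 2.69, 2.97 and 2.39 CPM in set A and 52, 48.2 and 48.4 CPM in the double mutant (4.19). The Hp1α single mutant had 5.41 ± 1.28 CPM of it and the Hp1β single mutant 18.2 ± 0.794 CPM (SD, n = 3). Tbx3, a T-box transcription factor of naive ESCs, rose from 5.02, 5.25 and 4.83 CPM to 35.5, 34.5 and 36.7 CPM (2.81), and the single mutants had at most 12.5 CPM. Further large rises were those of Gm45351 (5.08), Rpl39l, a paralog of a ribosomal protein gene (3.72), Nefm, the medium neurofilament (3.53), Adgrg6, an adhesion receptor (3.52), D630039A03Rik (2.85), Gm49394 (2.83), Rab25, a GTPase of epithelial membrane traffic (2.73), and Padi4, a peptidylarginine deiminase (2.54). Levels of Gm45351 and Gm49394 in the double mutant overlapped those of the Hp1β single mutant. Gm49394 overlaps Igf2 on the same strand of chromosome 7, so it is not a locus apart from Igf2.

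The largest fall under the same limits was that of Usp26, an X-linked deubiquitinase gene of germ cells. Usp26 (ENSMUSG00000055780, chromosome X, 51753959 to 51801233) had 170.0, 168 and 176 CPM in set A and 5.53, 3.96 and 4.93 CPM in the double mutant, a log2 fold change of −5.17 (SE 0.073, adjusted p = 1.1e-18 by the edgeR quasi-likelihood test, Benjamini-Hochberg adjusted). Hp1β Δ/Δ ESCs had 6.98, 7.69 and 7.84 CPM and Hp1α Δ/Δ ESCs 124, 128 and 124 CPM. The groups without Hp1β thus lay far below the others, and the double mutant lay below the Hp1β single mutant with a log2 fold change of −0.64, under the fold threshold. Cyct, the testis form of cytochrome c, had a similar order, with 29.3, 30.4 and 25.9 CPM in set A, 25, 24.7 and 23.6 CPM without Hp1α, 3.85, 4.67 and 2.64 CPM without Hp1β and 4.77, 3.96 and 3.4 CPM in the double mutant (−2.83).

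Cdh9, a type II cadherin, fell stepwise, from 11.8, 10.8 and 10.9 CPM in set A through 5.13, 5.75 and 5.71 CPM without Hp1α and 3.7, 2.31 and 3.21 CPM without Hp1β to 0.66, 0.33 and 0.605 CPM in the double mutant (−4.41). The 4 groups did not overlap. Eya1, a transcription cofactor and phosphatase, went from 16.9, 13.7 and 15.1 CPM to 1.78, 2.31 and 1.77 CPM (−2.96), with both single mutants between 5.29 and 8.43 CPM. Other large falls were those of Efhc2 (−3.96), Plcb1, a phospholipase C (−3.83), the pseudogene Rpl37-ps1 (−3.67), Gm6764 (−3.37), the secreted protein Tafa4 (−2.95), the apolipoprotein Apob (−2.94) and Tnfrsf8, the receptor CD30 (−2.93). Each of the rises and falls named in the last paragraphs, apart from that of Igf2, was also called against set B.

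**Figure D3:**
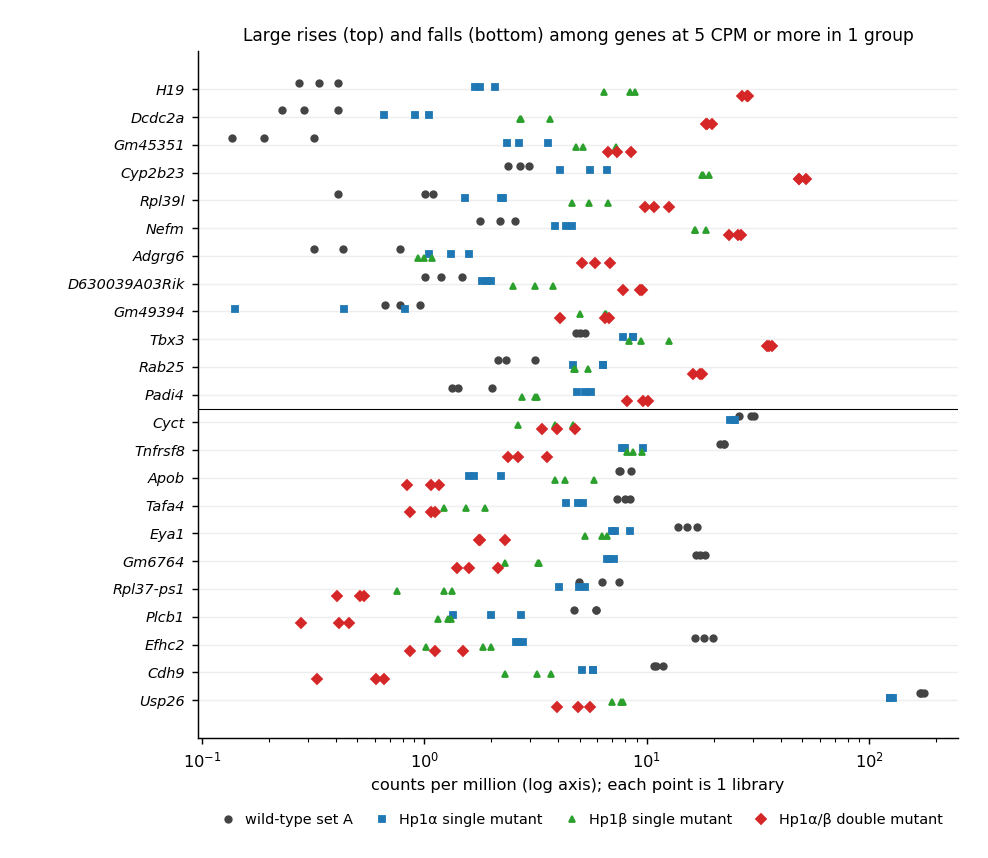
Levels in CPM (log axis) of genes with large rises and falls against wild-type set A, among called genes with at least 5 CPM in the higher group, and each symbol is 1 library. The double mutant (red) and set A (black) are apart for every gene shown, and the single mutants (blue and green) lie between them for most genes.

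Promoters of the most changed genes are shown as RefSeq gives them on GRCm38.p6, from 250 bases before the start of the gene to 50 after it. Each is written 5′ to 3′ on the strand of the gene, with every CG dinucleotide, the target of DNA methylation, in capitals. The windows chosen are those of 2 genes that rose and 2 that fell.
Dcdc2a: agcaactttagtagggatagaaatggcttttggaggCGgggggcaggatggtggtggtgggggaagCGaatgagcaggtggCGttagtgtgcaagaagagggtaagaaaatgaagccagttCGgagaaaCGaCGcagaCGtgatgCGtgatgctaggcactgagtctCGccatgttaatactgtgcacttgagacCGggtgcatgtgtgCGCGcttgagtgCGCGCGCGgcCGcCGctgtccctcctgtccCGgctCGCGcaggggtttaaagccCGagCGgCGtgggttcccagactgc
Cyp2b23: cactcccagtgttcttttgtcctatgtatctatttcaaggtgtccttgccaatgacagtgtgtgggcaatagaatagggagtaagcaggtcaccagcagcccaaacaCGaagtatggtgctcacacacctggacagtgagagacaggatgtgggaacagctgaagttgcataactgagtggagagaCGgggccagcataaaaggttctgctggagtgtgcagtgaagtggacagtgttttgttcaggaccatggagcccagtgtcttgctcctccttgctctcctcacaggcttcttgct
Usp26: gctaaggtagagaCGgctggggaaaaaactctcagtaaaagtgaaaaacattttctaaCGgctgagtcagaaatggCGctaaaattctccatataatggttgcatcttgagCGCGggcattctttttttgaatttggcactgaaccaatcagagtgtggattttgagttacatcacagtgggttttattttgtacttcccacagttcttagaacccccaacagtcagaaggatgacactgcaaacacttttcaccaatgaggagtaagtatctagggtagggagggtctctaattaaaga
Cdh9: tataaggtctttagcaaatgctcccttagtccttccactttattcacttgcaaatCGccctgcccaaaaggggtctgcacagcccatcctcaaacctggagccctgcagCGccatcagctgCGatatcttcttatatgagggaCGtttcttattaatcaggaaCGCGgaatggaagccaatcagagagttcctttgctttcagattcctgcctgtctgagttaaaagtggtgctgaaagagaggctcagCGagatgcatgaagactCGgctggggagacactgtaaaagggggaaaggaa
The windows lie at chr13:25055754-25056053 (plus strand), chr7:26686381-26686680 (minus strand), chrX:51801184-51801483 (minus strand) and chr15:16728665-16728964 (plus strand). They hold 24, 2, 5 and 8 CG dinucleotides, so the genes that rose include one of the richest and one of the poorest windows of the set shown. No comparison of base composition and motifs between called and other genes is drawn here. Only 72.6% of the tested genes, 64.0% of those that rose and 64.0% of those that fell have such a window. Called genes also differed from the others in their low expression.

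Lineage genes were described by lists whose members overlap in part. Their counts against set A stand beside 2.96% higher and 5.19% lower over all genes tested. Over all genes tested against set B, 11.1% were called. Of the trophoblast list's 17 tested genes of 23, 9 rose and 1 fell, with a median log2 fold change of 1.12 beside −0.00089 over all genes tested. Against set B 8 of 18 rose and 2 fell, with a lower median of 0.54. Tfap2c, a transcription factor of trophectoderm and germ cells, had 33, 31.5 and 30.6 CPM in set A and 144, 157 and 153 CPM in the double mutant (2.25). Its values in the Hp1α and Hp1β single mutants, 97.3, 106 and 105 and 71.6, 73.2 and 67.9 CPM, lay between. The simple-epithelium keratins Krt8 and Krt18 rose as well. Krt8 had 55.4, 57.8 and 56.6 CPM in set A and 234, 232 and 235 CPM in the double mutant (2.04), and in Hp1β Δ/Δ ESCs it already had 244, 201 and 201 CPM. Krt18 rose by 1.94, Hand1 by 1.71, the ligand Wnt7b by 1.7, Esx1 by 1.62 and Dlx3 by 1.45 on the log2 scale. Cdx2, the master factor of the lineage, was called at a level near 0, with 0.0913, 0.274 and 0.143 CPM in set A and 0.965, 0.701 and 0.977 CPM in the double mutant. Elf5 failed the filter on low counts in both groups, Gata3 had a log2 fold change of −0.99 and was not called, and Plet1 fell by 1.21. The summed level of the list was between 254 and 267 CPM in set A, between 341 and 348 CPM in Hp1α Δ/Δ, between 574 and 654 CPM in Hp1β Δ/Δ and between 693 and 707 CPM in Hp1α/β Δ/Δ ESCs. Such a sum follows its abundant members, here Krt8, Tfap2c and Krt18, and does not measure the lineage as a whole. Krt18 had means of 42.8 CPM in set A and 165 CPM in the double mutant.

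In the mesoderm list 7 of 16 tested genes rose and 3 fell, with a median of 0.67, while against set B 7 rose and 1 fell. The share called against set A was 62.5%, beside 8.15% over all genes tested. T (Brachyury), the factor of the primitive streak, went from 0.411, 1.14 and 0.191 CPM to 4.01, 3.84 and 5.91 CPM (2.95), while neither single mutant passed 1.27 CPM. Gsc, the organizer homeobox gene, rose by 2.04 and Gata2 by 1.34, both from under 2.1 CPM. Kdr, the VEGF receptor of blood and vessel precursors, fell from 5.48, 5.66 and 5.69 CPM to 0.965, 1.28 and 0.372 CPM (−2.67). Mixl1 and Mesp1, which mark nascent mesoderm, were not called, and Mesp1 did not pass the filter. The rises thus include streak and signalling genes, and the falls Kdr, Tal1 (−1.27) and Twist1 (−1.4), of which Tal1 and Twist1 were not called against set B. Among Wnt targets 5 of 14 rose and 0 fell, a share called of 35.7%, with a median of 0.57. Axin2, the feedback inhibitor of the pathway, had 4.06, 3.47 and 3.39 CPM in set A and 7.97, 10.6 and 10.9 CPM in the double mutant (1.43), and Sp5 (1.09), T, Cdx2 and Tnfrsf19 (1.27) were the others. Tnfrsf19 was not called against set B.

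Against set A, neural genes moved mostly the other way. Of 14 tested genes of the list, 1 rose and 7 fell, with a median of −0.57. Neurod1, a proneural factor, had 19.9, 22.5 and 22.6 CPM in set A and 4.11, 4.54 and 5.49 CPM in the double mutant (−2.2), and both single mutants lay between 12.9 and 17.4 CPM. Gap43, of growing axons, fell from 39.8, 44.3 and 39.2 CPM to 9.29, 11 and 9.44 CPM (−2.05). Nefm was the exception, with 2.56, 1.78 and 2.2 CPM in set A and 23.4, 26.6 and 25.8 CPM in the double mutant, although its partner in the neurofilament, Nefl, fell from 125, 131 and 121 CPM to 60.8, 59.8 and 59.5 CPM (−1.07). Pax6, Sox1 and Tubb3, which define the lineage, were not called against set A. Pax6 was called higher against set B (1.31), with means of 5.83 CPM in the double mutant and 2.34 CPM in set B. Against set B, 2 of 13 genes rose and 3 fell, with a median of −0.056, so the fall of the list depended on the control. In the gene ontology (GO) term nervous system development of the deposited annotation, 5 of 312 genes rose and 30 fell, beside 2.96% higher and 5.19% lower over all genes tested. Against set B 12 of 319 rose and 26 fell.

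Endoderm genes showed no common rise. Of 14 tested genes 1 rose and 4 fell, with a median of −0.28, and against set B 2 rose and 2 fell. Calls against set A made up 35.7% of the list, beside 8.15% over all genes tested. Gata4 had 0.73, 0.73 and 0.908 CPM in set A and 1.02, 0.743 and 0.605 CPM in the double mutant and was not called, and Gata6, Sox17 and Foxa2 did not pass the filter. Dab2, an endocytic adaptor, fell by 1.15 and Lama1, a basement membrane laminin, by 1.01, the latter not called against set B. Cubn, the cubilin receptor, fell by 2.67 and its partner Amn by 1.02, and the call of Amn was lost against set B. Sox7 rose by 1.75, from 0.776, 0.274 and 0.382 CPM to 2.49, 1.28 and 1.16 CPM.

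**Figure D4:**
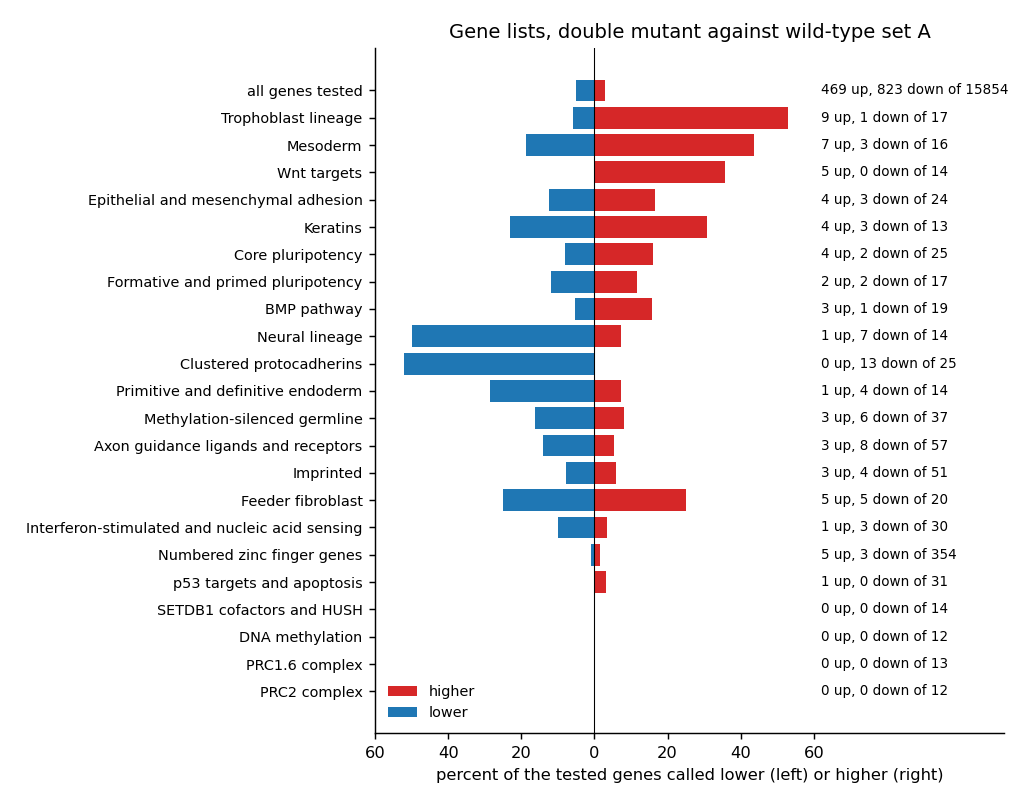
Percent of the tested genes of each list called higher (red, to the right) or lower (blue, to the left) in Hp1α/β Δ/Δ ESCs against wild-type set A, with the counts at the right and all genes tested at the top. Rises prevail in the trophoblast, mesoderm and Wnt lists, falls in the neural and clustered protocadherin lists, and no gene of the SETDB1, DNA methylation, PRC1.6 and PRC2 lists was called.

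Among core pluripotency genes 4 of 25 rose and 2 fell, with a median of 0.24, while against set B 3 rose and 1 fell. Thus 24% were called against set A, beside 8.15% over all genes tested. Klf4, a factor of the naive network, rose from 17.1, 17.3 and 16.7 CPM to 73.3, 72.5 and 78.7 CPM (2.13). It had 40.5, 44.2 and 43.1 CPM in Hp1α Δ/Δ ESCs and 18.2, 20.2 and 19.8 CPM in Hp1β Δ/Δ ESCs. The Hp1β single mutant thus lay just above set A, the Hp1α single mutant higher and the double mutant highest. Tbx3, Tcl1 (1.36) and Prdm14 (1.3) also rose, the last not called against set B. Gbx2 fell from 33.2, 40.1 and 33.2 CPM to 10.6, 13 and 10.2 CPM (−1.66), while both single mutants had 29.6 to 36.7 CPM, within or close to the range of set A. Dppa4 was called at the edge of the threshold (−1.0) and not against set B (−0.77). Of the formative and primed genes, 2 of 17 rose and 2 fell, a share called of 23.5%. Otx2, which primes ESCs for differentiation, went from 5.39, 5.57 and 7.31 CPM to 25.3, 23.2 and 24.7 CPM (2.0), below the 32, 32.9 and 36.4 CPM of the Hp1α single mutant. Fgf5 rose by 1.49 (not called against set B, 0.56), and Sox3 and Sox4 fell by 1.52 and 1.05.

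Signalling genes changed one by one. In the BMP list 3 of 19 genes rose and 1 fell, a share called of 21.1% beside 8.15% over all genes tested. The targets Id1 and Id3 moved in opposite directions. Id1 had 61.4, 59.2 and 55.9 CPM in set A, 24, 25 and 22.5 CPM in the double mutant and 164, 163 and 156 CPM in Hp1β Δ/Δ ESCs. Id3 had 9.31, 9.63 and 9.61 CPM in set A, 21.4, 25.3 and 21.4 CPM in the double mutant and 51.8, 49 and 49.3 CPM in Hp1β Δ/Δ ESCs. Both were thus far lower in the double mutant than in the Hp1β single mutant (−2.74 and −1.12), while against set A they were −1.31 and 1.25, and the call of Id1 was lost against set B (−0.38). The ligand Bmp4 rose by 1.02, and its level of 9.85, 9.45 and 9.21 CPM lay below that of the Hp1β single mutant (15.1, 19.7 and 17 CPM). In the FGF-ERK list 2 of 22 genes rose and 0 fell, a share called of 9.09%, near that over all genes. Against set B 1 of 22 rose. Fgf8 rose from 1.19, 0.548 and 0.908 CPM to 3.66, 3.22 and 3.91 CPM (2.01), and neither single mutant passed 0.843 CPM. None of 16 tested Nodal and Lefty genes was called, with a median of −0.030, and Lefty2, a Nodal inhibitor, had a log2 fold change of −0.61.

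Adhesion genes split. Of the epithelial and mesenchymal list 4 of 24 genes rose and 3 fell, a share called of 29.2% beside 8.15% over all genes tested. Those that rose were epithelial, with Dsp, the plakin of desmosomes, from 16.1, 15.9 and 18.5 CPM to 78.9, 75.6 and 80.7 CPM (2.21), and Krt8, Krt18 and Krt19. Those that fell were the mesenchymal factors Snai2 (−2.03), Twist1 and Zeb2 (−1.25), all at or under 4.73 CPM. Among keratins 4 of 13 rose, and Krt12, Krt17 and Krt20 fell, Krt12 from 4.52, 3.29 and 3.82 CPM to 0.254, 0.289 and 0.372 CPM (−3.65). Of the keratins 53.8% were called against set A. Against set B 2 of 14 keratins rose and 5 fell.

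Clustered protocadherins, the surface proteins by which neurons tell themselves apart, fell in 13 of 25 tested genes and rose in 0, with a median of −1.0. Pcdhga12 had 11.9, 10.9 and 8.98 CPM in set A and 4.72, 3.67 and 4.61 CPM in the double mutant (−1.3). Pcdhgb2 went from 2.97, 3.06 and 3.3 CPM to 0.965, 1.03 and 0.837 CPM (−1.72), Pcdhga10 fell by 1.71, Pcdhgb6 by 1.68 and Pcdhb2 by 2.44. Genes of the gamma cluster share their last exons, so the assignment of reads among them is uncertain, and their levels were low. Against set B 8 of 26 fell, and Pcdhga12 was not called (−0.97). The summed level of the family was 104 to 108 CPM in set A, 61.6 to 69.7 CPM in the double mutant and 78.9 to 87 CPM in the single mutants. Among axon guidance ligands and receptors 3 of 57 rose and 8 fell, and against set B 6 of 60 rose and 7 fell. Nrp2, a semaphorin co-receptor, rose from 35.4, 34.3 and 36.7 CPM to 135, 138 and 142 CPM (1.96), Robo4 fell by 1.94 and Epha10 by 1.9. Unc5c, a netrin receptor, fell by 1.9 against set A, but set B had only 0.195, 0.264 and 0.18 CPM, and against it the log2 fold change was 2.73. In the GO term cell adhesion 22 of 365 genes rose and 51 fell, beside 2.96% and 5.19% over all genes tested.

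Germline genes that are silenced by DNA methylation did not rise as a group. Of 37 tested genes of 43, 3 rose and 6 fell, a share called of 24.3%, with a median of −0.49. Over all genes tested 2.96% rose and 5.19% fell, 8.15% together. Ddx4, the germ cell helicase, fell from 25, 28.3 and 27.3 CPM to 13.1, 9.53 and 9.96 CPM (−1.32) and Piwil2, of the piRNA pathway, from 32.5, 25.8 and 25.8 CPM to 13.5, 13.4 and 13.7 CPM (−1.06). Sycp1, of the synaptonemal complex, fell by 2.49 and Taf7l by 2.07. Gpat2 (1.75), Fkbp6 (1.98) and Dpep3 rose, Dpep3 from at most 0.0913 CPM to 0.559, 0.908 and 0.465 CPM. Only 1 gene of the 2-cell-like list, Zfp809, passed the filter, with a log2 fold change of 0.013, so the list gives no reading of the 2-cell-like state. The X-linked homeobox gene Rhox5 fell from 17.2, 16.3 and 13.9 CPM to 6.5, 7.8 and 7.86 CPM (−1.1), while the Hp1α single mutant had 52.3, 53.5 and 51.9 CPM. Among imprinted genes, 13.7% of the 51 tested were called. Of these 51 genes 3 rose, namely H19, Igf2 and Airn (2.61), and 4 fell. Cdkn1c, a growth inhibitor, was one of the latter, with 74.6, 84.5 and 79.7 CPM in set A and 28.2, 29 and 26.2 CPM in the double mutant (−1.52).

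Genes of the silencing machinery stayed within the fold threshold. None of 6 H3K9 methyltransferases, 14 SETDB1 cofactors and HUSH subunits, 9 H3K9 demethylases, 12 DNA methylation genes, 13 PRC1.6 subunits and 12 PRC2 subunits was called against set A, with medians from −0.19 to 0.086. Over all genes tested 8.15% were called, but calls lay among weakly expressed genes, whereas Setdb1, Tet1 and Mga were well expressed. These lists were not compared with other genes at a like level of expression. Setdb1, the H3K9 methyltransferase of the euchromatic arms, had 195, 206 and 194 CPM in set A and 183, 179.8 and 184 CPM in the double mutant (−0.13). The 5-methylcytosine oxidase Tet1 went from 874, 869.5 and 874 CPM to 515, 518 and 533 CPM (−0.75), which passed the adjusted p (adjusted p = 2.89e-13, edgeR quasi-likelihood test, Benjamini-Hochberg adjusted) but not the fold threshold. Mga, of the PRC1.6 complex, had a log2 fold change of −0.56 and Trim28 of −0.076. Of 354 numbered zinc finger genes, many of which bind TRIM28, 5 rose and 3 fell, a share called of 2.26%. Zfp985 went from 8.63, 7.71 and 7.41 CPM to 28.1, 30.8 and 28.6 CPM (1.88). Against set B 15 of the zinc finger genes rose and 9 fell.

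Stress and metabolism lists are read against the 8.15% called over all genes tested. Of 31 tested p53 target and apoptosis genes 1 rose, namely Casp8, the initiator caspase of death receptors, from 1.83, 1.1 and 1.62 CPM to 4.77, 5.86 and 3.3 CPM (1.61), and none fell. In the cell cycle list Cdkn2c rose (1.4) and Cdkn1c fell, of 19 tested. No immediate early gene of 13 tested was called. Among interferon-stimulated and nucleic acid sensing genes 1 of 30 rose and 3 fell, with Ifit2 (−2.39), Sting1, the adaptor of DNA sensing (−1.82), and Zbp1 (−1.32) lower. Oas1a rose by 1.77, a call that was lost against set B (0.60). Of 30 hypoxia and glycolysis genes 2 rose. Slc2a3, the glucose transporter GLUT3, was the strongest transcript among the genes called higher that are named here, with 511, 505 and 498 CPM in set A and 1899, 1871 and 1928 CPM in the double mutant (1.91). It had 835 to 864 CPM in Hp1α Δ/Δ and 1124, 1025 and 1020.1 CPM in Hp1β Δ/Δ ESCs, so the double mutant lay above all other groups. The other was Ndufa4l2 (1.59), which was not called against set B (0.091).

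Feeder fibroblast markers were followed because ESCs were grown on feeders. Of 20 tested genes of 25, 5 rose and 5 fell, with a median of 0.012 and a summed level of between 1707 and 1734 CPM in set A and between 1639 and 1785 CPM in the double mutant. Col1a1, a defining marker, had 5.84, 6.57 and 5.73 CPM in set A, 22.3, 22.1 and 19.7 CPM in the double mutant and 13.3, 18.4 and 14 CPM in set B. Col1a2 had 1.19, 1.51 and 1.43, 5.03, 4.83 and 5.3 and 4.81, 6.46 and 6.75 CPM in the same order, so that its log2 fold change was 1.87 against set A and −0.26 against set B. Thy1 (−0.60) and Col3a1 (−0.66) were not called, and Postn was near 0, with 0, 0.0456 and 0 CPM in set A and 0.457, 0.0413 and 0.233 CPM in the double mutant. Col5a2, Dcn, Fbn1, Mmp2 and Twist1 fell, Mmp2 from 32.8, 34.7 and 36.6 CPM to 16.9, 16.7 and 15.1 CPM (−1.1). Calls against set A made up 50% of the tested markers, beside 8.15% over all genes tested. Against set B 0 of 20 rose and 6 fell. The part of feeder RNA in the rises of collagen, Acta2, Thbs1 and other mesenchymal genes was not tested.

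Genes of chromosome 16 lay lower as a whole. Of 461 tested genes there, 5 rose and 53 fell, 89.8% had a log2 fold change below 0, and the median was −0.42. On the other 19 chromosomes with at least 20 tested genes, medians ran from −0.066 to 0.12. Chromosome 16 held 3.46 to 3.47% of all counts in the libraries of set A and 2.63 to 2.66% in those of the double mutant. The shift was also present against set B (median −0.35), whereas against the single mutants it was −0.12 without Hp1β and 0.087 without Hp1α. In those single mutants 2.90 to 2.92% and 2.49 to 2.50% of all counts came from this chromosome. Gap43, Olig2, Snai2, Dppa4 and Sema5b, which fell, and Rpl39l, which rose, lie on it. Without chromosome 16, 464 of 15393 genes rose and 770 fell, and 48.9% of the changes were below 0.

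**Figure D5:**
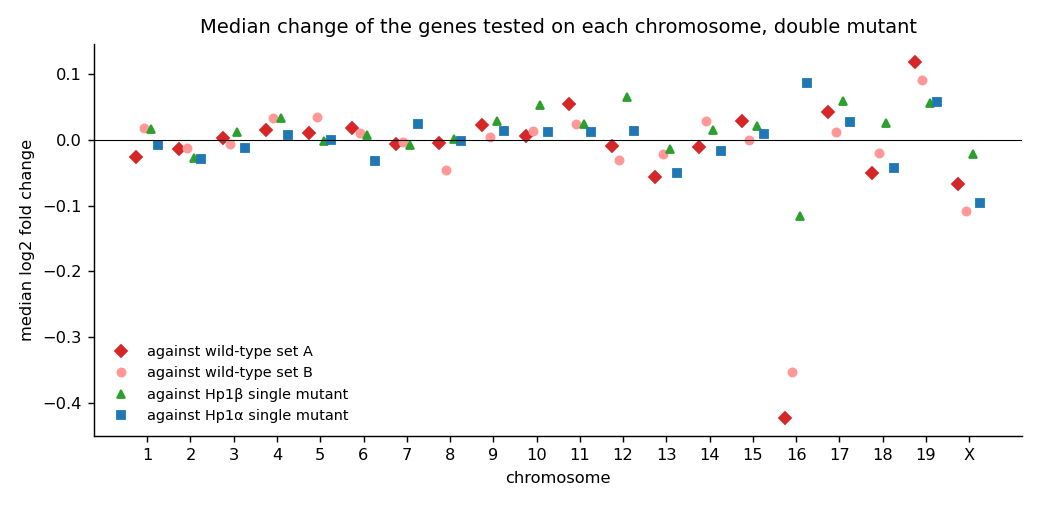
Median log2 fold change of the tested genes of each autosome and the X chromosome in Hp1α/β Δ/Δ ESCs, against 4 control groups. Chromosome 16 stands apart at −0.42 against wild-type set A and −0.35 against set B, and it is closer to 0 against the Hp1β (−0.12) and Hp1α (0.087) single mutants.

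The double mutant was next compared with each single mutant, which asks what the loss of the other paralog adds. These comparisons share the libraries of the double mutant with the one against the wild type and are given side by side, not as independent evidence. Against Hp1β Δ/Δ ESCs, 1058 of 15694 genes (6.74%) were called, 643 higher (4.10%) and 415 lower (2.64%). Rises thus prevailed here, unlike against the wild type. Among genes with at least 5 CPM in a group and no overlap of libraries, the largest were those of Zc3h6, a zinc finger RNA-binding gene (3.69), Ndufa4l2, a mitochondrial gene induced in hypoxia (3.6), and the Y-linked Zfy1 (3.28). Zc3h6 had 0.565, 0.40 and 0.661 CPM without Hp1β, 7.62, 7.01 and 6.37 CPM in the double mutant and 4.61, 5.02 and 5.3 CPM in set A, so the double mutant was nearer to the wild type and the Hp1β single mutant was the group that stood apart. Ndufa4l2 had 1.49, 1.07 and 0.614 CPM without Hp1β and 9.95, 14.2 and 13.7 CPM in the double mutant. Zfy1 had 0.924, 2.22 and 1.75 CPM without Hp1β and 15.9, 14.6 and 17.4 CPM in the double mutant, above all other groups. Under the same limits, falls were led by Pla2g7, a phospholipase A2 of the blood plasma (−3.4, from 7.5, 7.91 and 6.8 CPM to 0.914, 0.578 and 0.605 CPM), Gm48551 (−3.31) and Gm14565 (−2.81).

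Lists differed in this comparison, in which 4.10% of all genes tested were higher and 2.64% lower. In the hypoxia and glycolysis list 11 of 30 genes were higher in the double mutant than in the Hp1β single mutant and 0 lower, with a median of 0.80 beside 0.013 over all genes tested. Against set A 2 of 30 were higher (median 0.36), and against set B 1 of 30 (median −0.16). The shift of this list thus depended on the control. Its member Ndufa4l2 had 4.43, 3.7 and 4.4 CPM in set A and 11.3, 11.55 and 12.5 CPM in set B. The Hp1β single mutant lay below all other groups for this gene. Against the Hp1β single mutant, the trophoblast list had 2 of 19 genes higher and 3 lower (median −0.39), and the neural list 0 of 14 and 5 (median −0.73). Germline genes were higher in 2 and lower in 9 of 38. Krt8, Krt18, Hand1 and Cdx2, called higher against the wild type, had log2 fold changes of 0.13, 0.14, −0.57 and −0.73 against the Hp1β single mutant and were not called. Tfap2c (1.11), Dlx3 (1.2), T (1.92), Fgf8 (2.73) and Klf4 (1.96) were called higher there.

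Against Hp1α Δ/Δ ESCs, 661 of 15751 genes (4.20%) were called, 341 higher (2.16%) and 320 lower (2.03%). Under the limits used against Hp1β Δ/Δ ESCs, the largest rises were those of Dcdc2a (4.43), H19 (3.91) and Gm49394 (3.61), which overlaps Igf2. The largest falls were those of Usp26 (−4.71), Pnma5 (−3.55) and Cdh9 (−3.39). Pnma5, an X-linked paraneoplastic antigen gene, had 9.57, 8.28 and 8.52 CPM without Hp1α, 0.609, 0.908 and 0.698 CPM in the double mutant, 1.08, 1.56 and 0.992 CPM without Hp1β and 5.16, 5.29 and 4.3 CPM in set A. The trophoblast list had 5 of 16 genes higher and 0 lower (median 0.74), and the mesoderm list 5 of 16 higher and 1 lower (median 0.75), beside a median of 0.0025 over all genes tested. Krt8 (1.49), Krt18 (1.48), Hand1 (1.66) and Cdx2 (2.49) were called higher here, whereas Tfap2c (0.56) and Klf4 (0.81) were not. Clustered protocadherins were lower in 5 of 24 and higher in 0.

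Whether the double mutant departs from the sum of both single mutants was tested over 12 libraries with an interaction term, the log2 fold change of the double mutant less those of the single mutants, each against set A. It passed an adjusted p under 0.05 in 7432 of 16512 genes (45.0%), with 3868 terms above 0 (23.4%) and 3564 below 0 (21.6%), and the median over all genes was 0.040. An absolute term over 1 as well was found in 1573 genes, of which 1119 were above 0 and 454 below 0. For H19 the term was −0.61 (adjusted p = 0.109, edgeR quasi-likelihood test, Benjamini-Hochberg adjusted), and for Usp26 it was −0.20 (adjusted p = 0.169 in the same edgeR test), so neither departure from additivity on the log scale passed the test. Dcdc2a (1.15), Tbx3 (1.09), T (2.32), Fgf8 (2.92) and Dlx3 (2.04) lay above the sum of the single mutants. Cdh9 (−1.52), Gbx2 (−1.57), Neurod1 (−1.27) and Kdr (−1.38) lay below it. Gbx2 and Neurod1 thus fell in the double mutant by more than the single mutants add up to. For Otx2 (−1.74), Nrp2 (−1.53) and Id3 (−2.66) the term was also below 0, although each gene rose against set A. In each of them 1 or both single mutants had a higher level than the double mutant, such as the 149.6, 148 and 146 CPM of Nrp2 without Hp1β. With set B in place of set A the term passed in 8654 genes, and 6278 of the 7432 kept their call and sign.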

How the data were processed

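RNA-seq libraries of ESCs were analysed from tables that the authors deposited, one for each comparison. Per the labels, reads were processed with TopHat2 2.1.1, RSEM and edgeR on GRCm38.p5, and the kit was a TruSeq RNA kit, while the methods name a stranded total RNA kit. The authors estimated expected counts per gene, which need not be whole numbers, and the deposited TPM values are their counts scaled for gene length and depth. Columns with the authors' fold changes and p-values hold their own comparisons and were not used. Tables of further genotypes were not used here.

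Expected counts were rounded, and 3 libraries a group were compared. Genes were filtered with filterByExpr at a minimum count of 10, scaled by TMM and tested two-sided with edgeR 4.0.16 (glmQLFit and glmQLFTest, R 4.3.3) with Benjamini-Hochberg adjustment, and called when the adjusted p lay below 0.05 and the log2 fold change exceeded 1 in size (for the interaction term, by the adjusted p alone). CPM values come from 15 libraries scaled together, with totals of 19714459 to 24423041 counts. Totals limit the precision of genes under 1 CPM. DESeq2 1.42.0, other filters and scalings, set B, the replicate block and leaving out each library were alternatives. On simulated counts for the comparison with set A, over 15652 genes, 100% of 200 changed genes were recovered and 2 unchanged genes were called. The changes were planted only in well-counted genes, above the fold threshold and with the same spread for every gene. Recovery of weakly expressed genes, among which the calls lay, was therefore not tested. Replicates within each group differed by more than sampling noise.

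The comparison, gene lists and tests were chosen with earlier results of these data known. Genes were named by a rule: the HP1 genes, the 12 largest separated rises and falls at 5 CPM or more, up to 4 called members of each list, the 3 largest terms and changes in the other comparisons, and called genes within 500 kb of the deletions. Some genes that the rule names are not reported here. Further called list members and cell type markers were named after their values were seen. Coordinates are from GENCODE M21 on GRCm38, promoters from RefSeq on GRCm38.p6, and the guides from the study's own oligonucleotide list.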

Additional observations from a re-analysis of the deposited data

Results flagged for a closer look

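Among genes with at least 5 CPM in a group, in 6 the effect of losing one paralog differed most between ESCs with and without the other, by the test of the difference itself, the interaction term in edgeR's quasi-likelihood test over 12 libraries. Terms above 0 were led by Ccdc170, Zc3h6 and Tarm1. Ccdc170 had 7.07, 5.8 and 8.12 CPM in set A, 2.5, 2.83 and 2.53 CPM without Hp1α, 0.411, 0.311 and 0.331 CPM without Hp1β and 2.95, 2.81 and 2.23 CPM in the double mutant, a term of 4.33 (adjusted p = 1.05e-08 in edgeR with Benjamini-Hochberg adjustment). Zc3h6, whose values are given above, had a term of 4.21 (adjusted p = 3.23e-09, edgeR). Tarm1, a receptor of myeloid cells, had 5.75, 4.61 and 5.78 CPM in set A, 1.77, 1.35 and 1.31 CPM without Hp1α, 0.462, 0.0445 and 0.142 CPM without Hp1β and 0.559, 0.949 and 0.791 CPM in the double mutant, a term of 3.73 (adjusted p = 4.07e-05, edgeR). In Ccdc170 and Tarm1 the double mutant was thus below the wild type although its term was above 0.

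Terms below 0 were led by Gm48551, Hes3 and Gm45351. Gm48551 had 3.79, 3.01 and 0.86 CPM in set A, 8.67, 4.49 and 6.84 CPM without Hp1α, 8.16, 6.93 and 9.35 CPM without Hp1β and 0.152, 1.77 and 0.372 CPM in the double mutant, so that the wild type and the double mutant overlapped, and the term was −4.69 (adjusted p = 1.4e-05, edgeR). Hes3, a Hes-family repressor of neural progenitors, had 0.685, 0.73 and 0.573 CPM in set A, 1.09, 1.92 and 1.41 CPM without Hp1α, 5.24, 4.45 and 6.04 CPM without Hp1β and 0.508, 0.66 and 1.63 CPM in the double mutant. Its term was −3.62 (adjusted p = 1.39e-05, edgeR), and here too the wild type and the double mutant overlapped. Gm45351 had 0.137, 0.32 and 0.191 CPM in set A, 3.58, 2.35 and 2.67 CPM without Hp1α, 4.83, 7.25 and 5.15 CPM without Hp1β and 6.7, 8.5 and 7.35 CPM in the double mutant, a term of −3.31 (adjusted p = 3.25e-06, edgeR).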

How the results depend on the processing

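Counts of called genes stayed within 1.5 times the reported ones under DESeq2 (1215 against set A, 988 against Hp1β Δ/Δ, 598 against Hp1α Δ/Δ and 7128 for the interaction), other size factors and no filter. By the adjusted p alone 6881, 6969 and 5592 genes passed in the pairwise comparisons. With at least 10 counts in every library, 845 were called against set A and 419 against Hp1α Δ/Δ, and fewer genes were tested. With an absolute interaction over 1 as well, 1573 terms passed. Leaving out each library gave 1221 to 1303, 963 to 1153, 606 to 649 and 6844 to 7495. The replicate block gave 1278, 981, 630 and 7267. Replicate numbers do not pair the samples, since deviations of same-numbered libraries of the double mutant and set A correlated at 0.0058, 0.039 and −0.0056. Against set B 1767 genes were called, and the interaction passed in 8654. Of 1981 values of 158 named genes over 13 settings, 1894 kept their direction and side of the threshold, 83 lost the call and 4 reversed: Cbx3 at −0.0078 without replicate 1 of the double mutant (leaving out each library gave −0.0078 to 0.13), and with set B as control Col1a2 at −0.26, Unc5c at 2.73 and Meikin at 7.68. The cause was not tested. Leaving out 1 library ended the calls of Fgf5 (1.15 without replicate 2 of the double mutant), Bmp4 (0.99 without replicate 3 of set A and 0.997 without replicate 1 of the double mutant) and Snai2 (−1.84 without replicate 1 of set A). The same held for Fkbp6 (1.59 to 1.81 without replicate 2 or 3 of set A or 3 of the double mutant) and Cdkn2c (1.24 to 1.31 without replicate 1 or 2 of set A or 1 of the double mutant). It held for Amn (−0.98 to −0.88) and Gm49272 (0.72 to 1.18) without replicate 2 or 3 of set A and without other libraries of the double mutant, and for Lama1, Itga9 and Itgae, which lie at the fold threshold. DESeq2 did not call Gm11532 (2.24). Of 371 list counts, 61 moved by over 1.5 times. Meikin had no count in set B, so its value there depends on the prior count.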

Other observations

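Broad functional terms of the deposited GO annotation held calls in both directions, and their counts stand beside 2.96% higher, 5.19% lower and 8.15% called over all genes tested. Higher and lower genes numbered 45 and 58 of 719 in multicellular organism development, 34 and 59 of 651 in cell differentiation, and 14 and 17 of 214 in angiogenesis. They numbered 6 and 11 of 100 in extracellular matrix organization, 9 and 17 of 139 in axon guidance, and 13 and 30 of 371 in ion transport. Immune system process had 10 and 12 of 240, lipid metabolic process 15 and 21 of 386, apoptotic process 11 and 22 of 529, spermatogenesis 16 and 25 of 378, and meiotic cell cycle 7 and 11 of 102. The shares called in the immune, lipid and apoptotic terms were 9.17%, 9.33% and 6.24%, near that over all genes. The share called was small in housekeeping terms, with 7 and 12 of 556 in cell cycle, 3 and 2 of 353 in DNA repair, 1 and 2 of 335 in mRNA processing, 3 and 8 of 372 in translation, and 4 and 8 of 265 in chromatin organization.

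Among gene families, 8 of 231 solute carriers rose and 15 fell, a share called of 9.96% beside 8.15% over all genes tested. In the vomeronasal and olfactory receptors 2 of 43 rose and 5 fell, and against set B 2 of 50 rose and 15 fell. The collagens had 2 of 33 higher and 3 lower, the integrins 2 of 21 higher and none lower, and neither integrin, Itga9 (1.0) or Itgae (1.05), was called against set B. The cadherins had 1 of 12 in each direction, the laminins 2 of 9 lower, the glutathione transferases 1 of 19 higher, and the oxidative phosphorylation subunits 1 of 79 in each direction. Gstp2, a glutathione transferase, went from 5.7, 6.02 and 2.92 CPM to 11.6, 15.7 and 12 CPM (1.42). Of 5 tested Y-linked genes Zfy1 alone was called against set A, from 2.51, 2.65 and 3.11 CPM there to 15.9, 14.6 and 17.4 CPM in the double mutant (2.53). No gene was called among 3 tested Hox genes and 3 replication-dependent histone genes by edgeR's quasi-likelihood test.

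The wild-type sets differed in genes that one of them lacked. In 37 genes the libraries tabulated with set A held over 50 counts while set B held 0, and the reverse was true of 8 genes. Meikin, a kinetochore factor of meiosis, was such a case, with 3.15, 5.11 and 5.69 CPM in set A, 1.32, 1.32 and 0.884 CPM in the double mutant and 0, 0 and 0 CPM in set B.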
